A study of Mus musculus with 27 samples.

Results

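The 9 genes described here encode enzymes that make, salvage or remove the building blocks of DNA: Tyms, Tk1, Dut, Dctd, Dck, Rrm1, Rrm2, Rrm2b and Samhd1. They were chosen by name, as targets and neighbours of fluorouracil and folinic acid, out of 39971 genes in the table. All 9 were among the 15080 genes tested, with between 210 and 18415 counts in every library. RNA was sequenced from colon of wild-type BALB/c mice, as 27 samples in 5 groups, and n below counts samples. CAC_FPL mice (n = 6) carried colonic neoplasia induced with azoxymethane and dextran sulfate sodium (AOM/DSS), and received FOLFOX by injection with a probiotic complex and loperamide by mouth. CAC_FP mice (n = 5) had AOM/DSS, FOLFOX and the probiotic complex. CAC_F mice (n = 5) had AOM/DSS and FOLFOX, with saline by mouth. CAC mice (n = 5) had AOM/DSS and saline. NC mice (n = 6) had saline and no AOM/DSS. FOLFOX combines folinic acid, fluorouracil and oxaliplatin, and loperamide is an opioid that slows the gut. In the FOLFOX groups tissue was taken 1 week after chemotherapy began, and no such time is listed for CAC and NC. The tissue was a tumour-bearing segment in the 4 AOM/DSS groups and colon in NC, so AOM/DSS and the kind of tissue cannot be told apart. AOM/DSS neoplasia is a chemically induced model of colitis-associated cancer, and a segment holds tumour beside other bowel wall.

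Thymidylate synthase, the product of Tyms, turns dUMP into dTMP with a methyl group from a reduced folate. A metabolite of fluorouracil blocks it, and folinic acid, by adding to the folate pool, tightens that block. dUMP comes from dUTP through dUTPase (Dut) and from dCMP through dCMP deaminase (Dctd). Thymidine kinase 1 (Tk1) and deoxycytidine kinase (Dck) recover nucleosides instead. Ribonucleotide reductase makes deoxynucleotides from ribonucleotides with a large subunit (Rrm1) and a small one, which is Rrm2 in dividing cells or the p53-inducible Rrm2b. SAMHD1 (Samhd1) breaks deoxynucleoside triphosphates down, and several of these genes, Tyms, Tk1, Rrm1 and Rrm2 among them, are known for high expression in S phase.

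Per the deposited annotation Tyms lies on chromosome 5 from 30263200 to 30278615 on the minus strand, and Dck on the same chromosome from 88912855 to 88931140. Rrm2 lies on chromosome 12 from 24758240 to 24764145, Rrm1 on chromosome 7 from 102090902 to 102118978, and Rrm2b on chromosome 15 from 37924196 to 37961347. Dctd is on chromosome 8 (48552127 to 48594700) and Tk1 on chromosome 11 (117706352 to 117716918). Dut (125089110 to 125100528) and Samhd1 (156939453 to 156977185) are on chromosome 2. These coordinates carry a build not given in the sources used here. Promoter windows from RefSeq (build GRCm38.p6) were found for 8 of the 9 genes, Rrm2b being the exception. Each window runs from 250 bases before the start site to 50 after it. The windows were searched on both strands for 4 spellings of an E2F site (TTTCGCGC, TTTCCCGC, TTTGGCGC and TTTGCCGC), known from S phase genes, and for the CCAAT box. Overlapping matches were allowed. No window of the 8 genes held one of the E2F spellings, which 2.26% of all 32851 windows hold. A CCAAT box was found for 3 of 8 genes, Rrm2, Rrm1 and Dctd, against 37.4% of all windows, so this share is near the background. These 3 are printed because they also had the largest rises under FOLFOX alone, and Tyms is printed beside them as the target of fluorouracil. The 250 bases before the start site are given, 5′ to 3′ on the strand of the gene, with CCAAT in capitals. The stretches are chr12:24708004-24708253 (plus), chr7:102441445-102441694 (plus), chr8:48109763-48110012 (plus; 1 of 3 windows of Dctd, of which 2 overlap and hold the same box) and chr5:30073626-30073875 (minus).
Rrm2: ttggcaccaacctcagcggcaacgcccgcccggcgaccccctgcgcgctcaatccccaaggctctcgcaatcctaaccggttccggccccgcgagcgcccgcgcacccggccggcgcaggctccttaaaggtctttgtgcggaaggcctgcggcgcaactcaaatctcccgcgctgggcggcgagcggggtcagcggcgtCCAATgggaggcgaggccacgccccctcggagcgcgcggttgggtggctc
Rrm1: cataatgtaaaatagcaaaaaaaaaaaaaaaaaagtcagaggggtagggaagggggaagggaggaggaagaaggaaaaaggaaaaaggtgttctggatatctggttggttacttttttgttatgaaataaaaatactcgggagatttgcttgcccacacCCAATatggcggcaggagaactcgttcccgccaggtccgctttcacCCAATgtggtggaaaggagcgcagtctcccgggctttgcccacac
Dctd: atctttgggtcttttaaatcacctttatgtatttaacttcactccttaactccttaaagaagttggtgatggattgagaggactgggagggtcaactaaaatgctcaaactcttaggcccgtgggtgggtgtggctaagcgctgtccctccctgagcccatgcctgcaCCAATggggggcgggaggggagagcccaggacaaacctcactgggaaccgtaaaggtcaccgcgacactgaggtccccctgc
Tyms: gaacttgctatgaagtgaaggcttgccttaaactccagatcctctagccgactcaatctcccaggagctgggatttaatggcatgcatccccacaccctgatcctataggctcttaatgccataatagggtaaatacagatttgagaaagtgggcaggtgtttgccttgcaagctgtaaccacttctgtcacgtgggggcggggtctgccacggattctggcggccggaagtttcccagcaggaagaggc

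Total counts were 56687812 to 79709845 per library and the labels give 1 batch. The labels list one sample per replicate but do not name the animals, so p-values measure the spread between these samples. Epithelial markers (11 of 11 detected) were present in every library, at a summed 9159 to 47557 CPM (counts relative to library size, after scaling with trimmed means of M values). Smooth muscle markers differed between groups: their sum (10 genes) was 1883 to 5889 CPM in CAC_FPL, 1110.0 to 3527 in CAC_FP, 1718 to 3051 in CAC_F, 3449.8 to 15681 in CAC and 3603 to 8639 in NC. Against CAC, 9 of 10 of these markers were lower in CAC_F and 9 of 10 in CAC_FP, and none was called in CAC_FPL. In bulk tissue fewer cells of a type and less RNA per cell cannot be told apart. The CAC_FPL libraries were not alike. Erythroid markers (5 genes) summed to 176, 58.2 and 32.9 CPM in CAC_FPL replicates 1, 2 and 3 and to 0.0994, 0.602 and 3.59 CPM in replicates 4, 5 and 6. They were at most 0.561 CPM in CAC_FP, at most 0.255 CPM in CAC_F, at least 28.4 CPM in CAC and at least 24.7 CPM in NC. In CAC_F 2 of the 5 were at 0 in every library, and all 4 that were tested were lower in CAC_F and in CAC_FP than in CAC. The mean log2 CPM of 18 known p53 targets split the CAC_FPL libraries in the same way, at 4.58 to 4.76 in replicates 1 to 3 and 5.10 to 5.23 in replicates 4 to 6. It was 4.91 to 5.62 in CAC_FP, 5.20 to 5.69 in CAC_F, 4.45 to 4.62 in CAC and 4.50 to 4.67 in NC. The labels give FOLFOX to all 6 CAC_FPL samples, whereas replicates 1 to 3 lay nearer to CAC and NC than to CAC_F on both measures. Interferon response genes (20 listed) did not split in that way. Their mean log2 CPM was 3.33, 4.22 and 3.71 in CAC_FPL replicates 1, 2 and 3, and 4.78, 3.29 and 5.53 in replicates 4, 5 and 6. It was 3.61 to 4.95 in CAC_FP, 3.29 to 4.66 in CAC_F, 4.32 to 6.18 in CAC and 4.04 to 6.73 in NC. It remains in doubt whether the libraries labelled CAC_FPL replicates 1 to 3 share the exposure of the others. This was not tested, and every CAC_FPL value below is that of the 6 libraries as labelled.

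**Figure D1:**
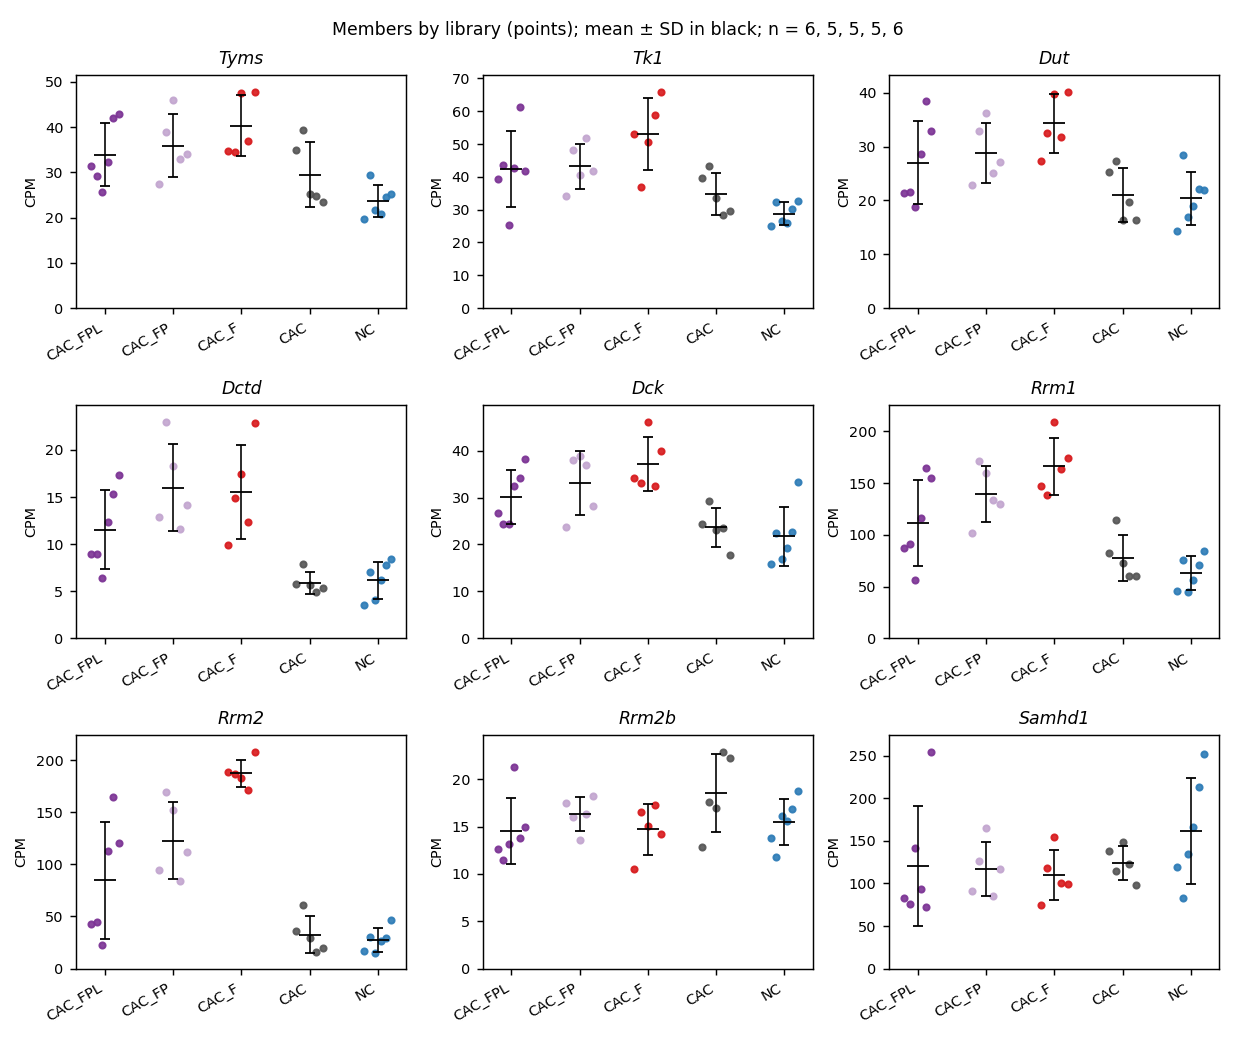
Each panel shows 1 gene in CPM on a linear axis from 0, with 1 point per library and the group mean ± SD in black (CAC_FPL n = 6, CAC_FP n = 5, CAC_F n = 5, CAC n = 5, NC n = 6). The 5 CAC_F libraries of Rrm2 lie between 171 and 208 CPM, above every library of the other groups, while Rrm2b shows no such step.

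Among all 5 groups, 7 of the 9 genes differed somewhere (edgeR quasi-likelihood test over the 5 groups), against 39.9% of all genes tested. The 7 were Rrm2 (adjusted p = 5.25e-05), Dctd (0.000183), Rrm1 (0.000241), Tk1 (0.00231), Dck (0.00494), Tyms (0.00502) and Dut (0.014). Rrm2b (adjusted p = 0.346) and Samhd1 (0.451) did not pass. With voom and library weights all 9 passed, where 8276 of the 15080 genes did. In CAC_F, where FOLFOX was given alone, the same 7 rose over CAC, and 0 of 9 fell. Of all genes tested, 19.0% rose and 20.2% fell in that comparison, so a change by itself was common. The median log2 fold change of the 9 genes was 0.65, against -0.03 over all genes tested. For 5 of 9 (Dut, Dctd, Dck, Rrm1 and Rrm2) every CAC_F library was above every CAC library in CPM, against 10.9% of all genes. In the authors' FPKM, a value per gene length and library depth, Dut overlapped between these groups. In CAC_FP 3 of 9 rose over CAC (Dctd, Rrm2 and Rrm1), where 9.68% of all genes rose and 8.90% fell. In CAC_FPL 0 of 9 passed against CAC, where 0.882% of all genes rose and 0.524% fell. At an unadjusted p below 0.05 the edgeR test gave 2837 genes there, and DESeq2 called 860 after adjustment, 2 of the 9 among them. These 3 comparisons share the CAC libraries. Against NC, 5 of 9 were higher in CAC_FPL (Tyms, Tk1, Dctd, Rrm1 and Rrm2), where 4.40% of all genes were higher and 2.68% lower. In CAC_FP 6 of 9 were higher than in NC, the same 5 and Dck, where 14.1% of all genes were higher and 12.5% lower. In CAC_F 7 of 9 were higher than in NC, where 22.6% of all genes were higher and 23.7% lower.

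**Figure D2:**
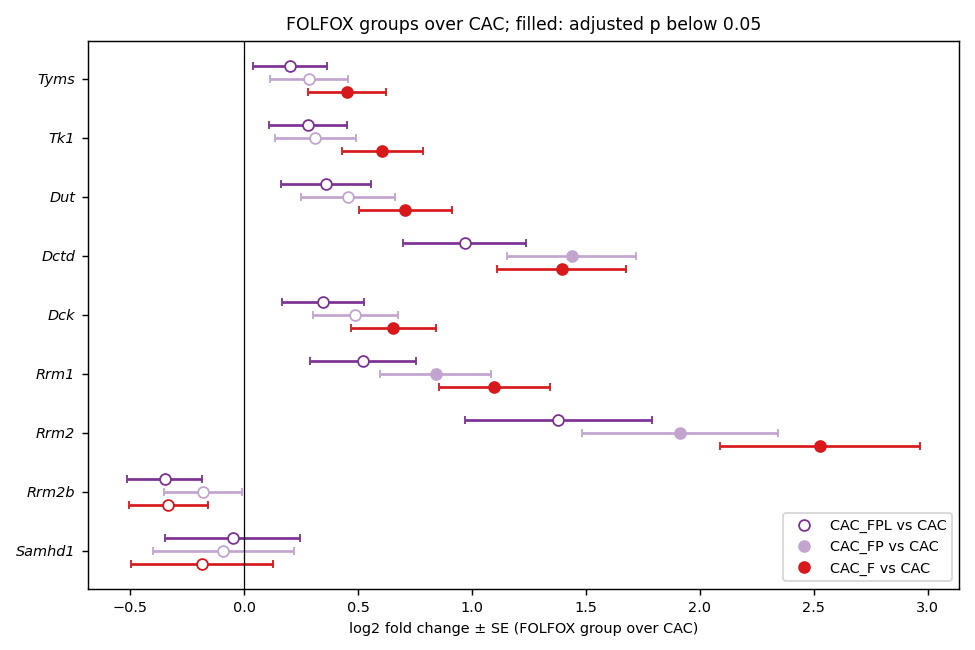
The log2 fold change of each gene over CAC, ± SE, in CAC_FPL, CAC_FP and CAC_F, with filled points at an adjusted p below 0.05 (edgeR). Filled points number 7 for CAC_F, 3 for CAC_FP and 0 for CAC_FPL, and Rrm2b and Samhd1 are open in all of them.

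Tyms, the direct target of fluorouracil, rose modestly in CAC_F. It had 34.7, 34.6, 47.6, 36.9 and 47.8 CPM in CAC_F, against 35.0, 39.3, 25.1, 24.8 and 23.3 CPM in CAC. The groups overlapped: 2 of 5 CAC_F libraries were above the highest CAC library. The log2 fold change was 0.45 ± 0.17 (SE; adjusted p = 0.0394). This was the weakest of the 7 calls. It was lost with any of 5 libraries left out (CAC_F replicate 3 or 5, or CAC replicate 3, 4 or 5), at an adjusted p of 0.0791 to 0.105. Tyms averaged 35.9 ± 7.02 CPM in CAC_FP (SD, n = 5) and 33.9 ± 6.99 CPM in CAC_FPL (n = 6), and neither passed against CAC at 29.5 ± 7.15 CPM (n = 5; adjusted p = 0.244 and 0.528). Against NC, at 23.6 ± 3.56 CPM (n = 6), Tyms was higher in all 3 FOLFOX groups, by 0.52 ± 0.16 in CAC_FPL (adjusted p = 0.0421), 0.61 ± 0.16 in CAC_FP (0.0091) and 0.77 ± 0.16 in CAC_F (0.000561) on the log2 scale. The pseudogene Tyms-ps held 0 to 4 counts per library, at most 0.169% of the counts of Tyms.

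Both suppliers of dUMP rose in CAC_F, and Dctd more than Dut in size. Dctd had 9.88, 14.9, 17.5, 12.4 and 22.9 CPM in CAC_F, against 5.76, 7.86, 5.66, 4.87 and 5.35 CPM in CAC. Every CAC_F library was above every CAC library, and the log2 fold change was 1.39 ± 0.28 (adjusted p = 0.000638). Dctd also rose in CAC_FP, where it had 12.9, 23.0, 18.3, 11.6 and 14.2 CPM and again did not overlap CAC (1.44 ± 0.28 on the log2 scale, adjusted p = 0.00268). It was the one gene of the 9 whose mean was highest in CAC_FP, though CAC_FP over CAC_F gave 0.04 ± 0.28 (adjusted p = 0.953). In CAC_FPL it was at 11.5 ± 4.19 CPM (SD, n = 6), with 5 of 6 libraries above the highest CAC library and a log2 fold change over CAC of 0.97 ± 0.27 that missed the threshold (adjusted p = 0.0624). Dut had 27.4, 32.6, 39.8, 31.8 and 40.2 CPM in CAC_F, against 25.2, 27.3, 16.4, 19.8 and 16.5 CPM in CAC. In CPM the 2 groups did not overlap, although the lowest CAC_F library (27.4 CPM) all but met the highest CAC library (27.3 CPM). In FPKM they overlapped, with 10.06 in the lowest CAC_F library and 11.23 in the highest CAC library. The log2 fold change of Dut was 0.71 ± 0.21 (adjusted p = 0.00889) in CAC_F. The values of 0.46 ± 0.20 in CAC_FP (0.116) and 0.36 ± 0.20 in CAC_FPL (0.326) were not called.

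The salvage kinases rose by similar amounts in CAC_F. Tk1 had 53.1, 36.8, 50.7, 58.9 and 65.9 CPM in CAC_F, against 39.5, 43.2, 33.5, 28.4 and 29.7 CPM in CAC. In 4 of 5 CAC_F libraries it was above the highest CAC library, and the log2 fold change was 0.61 ± 0.18 (adjusted p = 0.00954). Dck had 34.2, 33.2, 46.1, 32.5 and 39.8 CPM in CAC_F, against 24.4, 29.3, 23.0, 23.5 and 17.8 CPM in CAC. The groups did not overlap, at a log2 fold change of 0.65 ± 0.19 (adjusted p = 0.0081). In CAC_FP neither passed against CAC: Tk1 was at 0.31 ± 0.18 (adjusted p = 0.215) and Dck at 0.49 ± 0.19 (0.0671). Dck passed there without CAC_FP replicate 1 (0.60, adjusted p = 0.0353) or CAC replicate 2 (0.60, 0.0327). These were the lowest CAC_FP and the highest CAC library for Dck, so leaving either out widens the difference by itself. In CAC_FPL Tk1 was at 0.28 ± 0.17 (0.378) and Dck at 0.35 ± 0.18 (0.296). Within a library, the FPKM of Tk1 was between 1.03 and 1.87 times that of Tyms in all 27 libraries. FPKM is the authors' value per kilobase of gene model and per library depth. This ratio of salvage to de novo transcript averaged 1.46 ± 0.27 in CAC_FPL (SD, n = 6), 1.44 ± 0.29 in CAC_FP (n = 5), 1.55 ± 0.30 in CAC_F (n = 5), 1.40 ± 0.12 in CAC (n = 5) and 1.44 ± 0.08 in NC (n = 6). In CAC_F minus CAC its log2 difference was 0.13 ± 0.14 (SE; exact permutation p = 0.381, 0.762 after adjustment over 14 tests of 2 ratios), and none of the other 6 comparisons came below an adjusted p of 0.842 by the same exact test.

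Ribonucleotide reductase held the largest rise among the 9 genes. Rrm2, the small subunit used in S phase, had 189, 187, 183, 171 and 208 CPM in CAC_F, against 35.8, 61.1, 29.8, 15.9 and 20.0 CPM in CAC. The groups were far apart, at a log2 fold change of 2.53 ± 0.44 (adjusted p = 0.000189), or 5.76-fold. Rrm2 in CAC_FP had 95.1, 169.8, 152, 83.7 and 112 CPM, all above CAC (log2 fold change 1.91 ± 0.43, adjusted p = 0.00545) and all below CAC_F. The highest CAC_FP library (169.8 CPM) all but met the lowest CAC_F library (171 CPM). In CAC_FPL Rrm2 had 42.5, 45.0, 22.3, 113, 165 and 120.2 CPM in replicates 1 to 6. Replicates 4, 5 and 6 were above every CAC library, and replicates 1, 2 and 3 were within the CAC range. These last 3 were also the CAC_FPL libraries with erythroid markers at 32.9 to 176 CPM; the part of those libraries in the result was not tested. The log2 fold change of CAC_FPL over CAC, 1.38 ± 0.41, missed the threshold (adjusted p = 0.0749). It passed with CAC replicate 2 left out (1.75, adjusted p = 0.0217) or CAC_FPL replicate 3 left out (1.59, 0.0234). Dctd passed under the same omissions (1.10 in both, adjusted p = 0.031 and 0.0259). For Rrm2 and Dctd these were the highest CAC library and the lowest CAC_FPL library, so leaving either out widens the difference by itself.

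Rrm1, the large subunit that both small subunits need, had 147, 138, 209, 164 and 174 CPM in CAC_F, against 82.2, 114, 72.4, 60.4 and 59.8 CPM in CAC. Every CAC_F library was above every CAC library (log2 fold change 1.10 ± 0.24, adjusted p = 0.00132). It averaged 139 ± 27.2 CPM in CAC_FP (SD, n = 5; 0.84 ± 0.24 on the log2 scale over CAC, adjusted p = 0.02). That call was lost without CAC_FP replicate 2 or 3 or CAC replicate 4 or 5 (adjusted p = 0.0504 to 0.0591). In CAC_FPL it averaged 112 ± 41.7 CPM (n = 6), a log2 fold change of 0.52 ± 0.23 over CAC that was not called (adjusted p = 0.229).

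Rrm2b, the small subunit that p53 can induce, was not called by edgeR in any comparison of all libraries. It had 10.5, 16.5, 15.0, 17.3 and 14.2 CPM in CAC_F, against 12.9, 17.6, 17.0, 22.9 and 22.3 CPM in CAC. The groups overlapped and the log2 fold change was -0.33 ± 0.17 (adjusted p = 0.127). Without CAC replicate 1 it was -0.44 and passed (adjusted p = 0.0467). In CAC_FP over CAC it was at -0.18 ± 0.17 (0.474) and in CAC_FPL at -0.35 ± 0.16 (0.253). With voom and library weights the CAC_FPL value was -0.53 and passed as lower (adjusted p = 0.0401). Levels per length set the small subunits apart: FPKM of Rrm2b averaged 1.5 ± 0.40 in CAC_FPL, 1.71 ± 0.19 in CAC_FP, 1.54 ± 0.31 in CAC_F, 1.83 ± 0.37 in CAC and 1.47 ± 0.24 in NC. FPKM of Rrm2 averaged 29.1 ± 19.5 in CAC_FPL, 42.4 ± 12.8 in CAC_FP, 64.8 ± 6.34 in CAC_F, 10.9 ± 6.69 in CAC and 8.59 ± 3.62 in NC (SD; n = 6, 5, 5, 5 and 6).

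The ratio of Rrm2b to Rrm2 compares the transcripts of the 2 small subunits inside each library. It was 0.0167, 0.0268, 0.0249, 0.0306 and 0.0207 in CAC_F, against 0.109, 0.0874, 0.172, 0.435 and 0.338 in CAC. All CAC_F libraries were below all CAC libraries, at a log2 difference of -3.01 ± 0.47 (SE; exact permutation p = 0.00794, two-sided, the smallest that 5 against 5 libraries can give; 0.0556 after adjustment over 14 tests). CAC_FP had 0.0556, 0.0287, 0.027, 0.0588 and 0.0494 and lay below CAC as well (-2.18 ± 0.51, exact permutation p = 0.00794, adjusted p = 0.0556). CAC_FPL ran from 0.0254 through a median of 0.0671 to 0.18, overlapping CAC (-1.57 ± 0.60, exact permutation p = 0.039, adjusted p = 0.109). None of these passed after adjustment. The first 2 were already at the smallest p that 5 against 5 libraries can give. Their adjusted p can therefore fall only with the p of other tests among the 14. With 1 added to each FPKM both came to an adjusted p of 0.0404 by the exact test, at smaller differences (-2.78 and -2.04). That change of side is no measure of a larger difference.

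**Figure D3:**
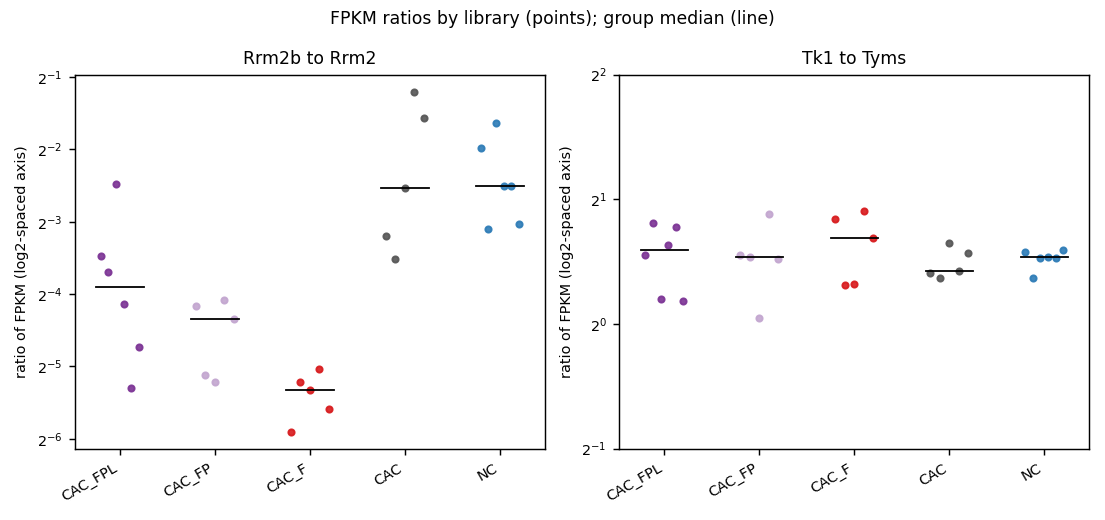
FPKM of Rrm2b over Rrm2 (left) and of Tk1 over Tyms (right) in each library, on a log2-spaced axis, with the group median as a line. On the left the CAC_F libraries lie between 0.0167 and 0.0306 and the CAC libraries between 0.0874 and 0.435; on the right all 27 libraries lie between 1.03 and 1.87.

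Samhd1, the enzyme that degrades deoxynucleoside triphosphates, varied widely inside groups. It had 75.1, 119, 154, 101 and 99.0 CPM in CAC_F, against 138, 115, 149, 123 and 97.7 CPM in CAC. The groups overlapped (-0.19 ± 0.31 on the log2 scale, adjusted p = 0.661). In CAC_FPL it ran from 71.8 through a median of 88.5 to 254 CPM, and in NC from 82.8 through 151 to 252 CPM. No pairwise comparison called it by edgeR, and its lowest adjusted p over them was 0.128, in CAC_F over NC (-0.56 ± 0.30). Per length it was the most abundant of the 9 in NC, at 15.3 ± 6.08 FPKM (SD, n = 6), above Rrm2 at 8.59 ± 3.62 and Dut at 7.35 ± 1.92. In CAC_F it was at 11.5 ± 3.38 FPKM (n = 5), below Rrm2 at 64.8 ± 6.34, Rrm1 at 14.5 ± 2.76 and Dut at 13.7 ± 2.72.

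Without chemotherapy none of the 9 genes was called between AOM/DSS and untreated colon. In CAC over NC 0 of 9 passed by edgeR, where 0% of all genes rose and 0.00663% (1 gene) fell. At an unadjusted p below 0.05 edgeR gave 1164 genes in that comparison, and DESeq2 called 41, with 0 of the 9 among them. The log2 fold changes ran from -0.38 ± 0.30 for Samhd1 to 0.32 ± 0.16 for Tyms (adjusted p = 0.815 and 0.65). Rrm2 was at 0.24 ± 0.40 (adjusted p = 0.935), with 61.1 CPM as its highest CAC library and 46.6 CPM as its highest NC library.

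The order of group means was the same for 6 of the 9 genes (Tyms, Tk1, Dut, Dck, Rrm1 and Rrm2): CAC_FPL below CAC_FP below CAC_F, with CAC and then NC under CAC_FPL. No pair of neighbours in that order differed beyond the test's threshold, with an adjusted p of 0.0749 (Rrm2, CAC_FPL over CAC) or above. In CAC_FP over CAC_F 0 of 9 genes passed, and of all genes 0% rose and 0% fell by edgeR. At an unadjusted p below 0.05 edgeR gave 2401 genes there, and DESeq2 called 247, with 0 of the 9 among them. In CPM Rrm2 did not overlap between these groups, lower in every CAC_FP library than in every CAC_F library. Of all genes, 0.955% were so separated. The gap was small, and in FPKM the groups overlapped, with CAC_FP replicate 2 at 58.98 and CAC_F replicate 4 at 58.54. The log2 fold change was -0.61 ± 0.42 (edgeR, adjusted p = 0.475). In CAC_FPL over CAC_F 0 of 9 passed, where 7.14% of all genes rose and 5.05% fell. The lowest adjusted p-values belonged to Rrm2 and Rrm1. Rrm2 was at -1.15 ± 0.40 (adjusted p = 0.0574), with every CAC_FPL library below every CAC_F library (1.46% of all genes were), and Rrm1 at -0.58 ± 0.23 (0.092). Unadjusted, 4665 genes were below 0.05 by edgeR in that comparison, and DESeq2 called 2708, Rrm2 among them (-1.16, adjusted p = 0.0242). Rrm2 also passed by edgeR without CAC_FPL replicate 4, 5 or 6 (-1.26 to -1.46, adjusted p = 0.0183 to 0.0472). Rrm1 passed without replicate 5 or 6 (-0.73 and -0.71, adjusted p = 0.0356 and 0.0426) and Tk1 without replicate 5 (-0.48, 0.0438). The libraries left out were among the highest CAC_FPL libraries for these genes, so leaving one out widens the difference by itself. The CAC_FPL libraries whose exposure is in doubt then weigh more. In CAC_FPL over CAC_FP 0 of 9 passed, and 0% of all genes rose and 0% fell. There 995 genes were below an unadjusted p of 0.05 by edgeR and DESeq2 called 21, with 0 of the 9 among them.

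Smooth muscle markers moved with these results. With the mean of the 10 markers as a covariate, 4432 of all 15080 genes were called in CAC_F over CAC in place of 5902. Of the 9, 3 were called in place of 7, so the members' share with the covariate was near that of all genes. Rrm2 (2.08, adjusted p = 0.0052), Dctd (1.21, 0.0138) and Rrm1 (0.77, 0.0474) passed. Tk1 (0.45, adjusted p = 0.128), Dut (0.47, 0.152), Dck (0.30, 0.274) and Tyms (0.20, 0.468) did not. In CAC_FP over CAC the covariate left Dctd (1.23, adjusted p = 0.0362) and lost Rrm2 (1.42, 0.0773) and Rrm1 (0.48, 0.303). Of all 15080 genes, 1363 were called there, so the members' share was again near that of all genes. Over the 5 groups 2 of 9 genes passed with the covariate, and 3529 of all 15080 did, so the members' share is near that of all genes. The part of tissue makeup in the rises was not tested beyond this fit.

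The 7 genes that rose also varied together from library to library inside the groups as labelled. After group means were subtracted, log2 CPM of the 21 pairs among them correlated over the 27 libraries at Pearson r of 0.56 to 0.93, with a median of 0.78. Tyms with Dut had the highest r (0.93) and Rrm1 with Rrm2 the next (0.92). Rrm2b correlated with the other 8 at -0.22 to 0.24 and Samhd1 at -0.21 to 0.47. These are descriptions of libraries that share scaling and tissue makeup, and no p is attached. Subtracting group means leaves in r the split of the CAC_FPL libraries. Mean log2 CPM of 22 S phase genes was 4.25 to 4.79 in CAC_FPL replicates 1 to 3 and 5.24 to 5.56 in replicates 4 to 6. The part of that split in r was not tested.

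**Figure D4:**
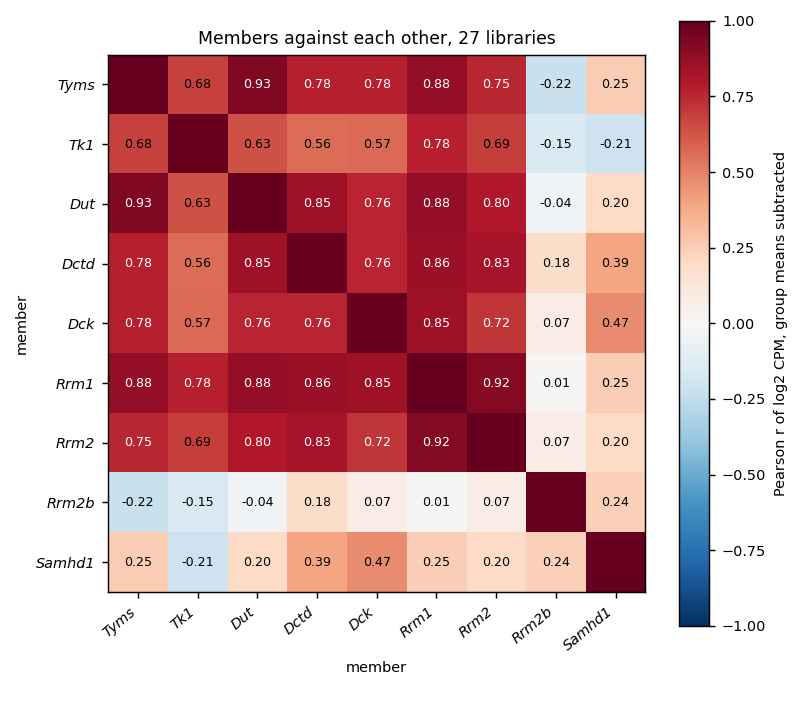
Pearson r of log2 CPM between each pair of the 9 genes over 27 libraries, after subtracting group means, on a colour scale of -1 to 1 with the value in each cell. The first 7 rows and columns hold r of 0.56 to 0.93 with each other, and the last 2, Rrm2b and Samhd1, hold -0.22 to 0.47.

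The genes most like each member over the 27 libraries, were found by Pearson r of log2 CPM with groups left in, as a description. For Rrm2 they were Nup93 (r = 0.99), Pa2g4 (0.98) and Mcm7 (0.98), a subunit of the replicative helicase. Rrm1 had Nup133 (0.98), the chromatin assembly factor Chaf1a (0.98) and the clamp loader subunit Rfc5 (0.98). Dctd had Pidd1 (0.96), the replication licensing factor Cdc6 (0.95) and Hells (0.95). Dck had Topbp1 (0.94), the maintenance methyltransferase Dnmt1 (0.93) and Rad51ap1 (0.93). Tk1 had Pmf1 (0.93), Firrm (0.92) and the Fanconi anaemia gene Fancd2 (0.92). Tyms had Sae1 (0.96), Eef1g (0.95) and Impdh2 (0.94), an enzyme of guanine nucleotide synthesis. Dut had the abasic site endonuclease Apex1 (0.96), Hnrnpab (0.95) and Ran (0.95). Rrm2b had lower values, with Ro60 (0.80), Mosmo (0.79) and Myo9a (0.76). Samhd1 stood with the interferon-inducible GTPases Gvin2 (0.90) and Gvin1 (0.90).

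S phase genes outside the 9, a list of 22 that includes the MCM helicase subunits, moved in the same comparisons. In CAC_F over CAC 20 of 22 rose and 0 fell, with a median log2 fold change of 1.04, against -0.03 over all genes. Ccne1, the cyclin of S phase entry, was at 1.67 ± 0.28 (adjusted p = 0.000148), Mcm4 at 1.32 ± 0.25 (0.000343), the licensing factor Cdt1 at 1.27 ± 0.24 (0.000395) and Mcm3 at 1.42 ± 0.29 (0.000598). In CAC_FP over CAC 15 of 22 rose (median 0.84), and in CAC_FPL over CAC 0 of 22 were called (median 0.56). Rrm2 tracked the mean of this list at r = 0.94 and Rrm1 at r = 0.97 after group means were subtracted, whereas Rrm2b was at -0.01 and Samhd1 at 0.25. These r too contain the split of the CAC_FPL libraries, whose part was not tested. Of 18 mitosis genes, 11 rose in CAC_F over CAC (median 0.68), such as Ccnb1 at 1.19 ± 0.29 (adjusted p = 0.00239), Cdk1 at 1.06 ± 0.26 (0.00309), Tpx2 at 0.95 ± 0.27 (0.00716) and Kif20a at 1.02 ± 0.29 (0.00754). In CAC_FP over CAC 1 of 18 rose, at a median of 0.54. Of all genes, 19.0% rose in CAC_F over CAC and 9.68% in CAC_FP over CAC. The share of 1 of 18 was thus no more than that of all genes. In CAC_FP over CAC_F 0 of 18 were called by edgeR, where 0% of all genes rose and 0% fell. Mki67, a marker of cycling cells, was at 313 ± 59.7 CPM in CAC_F against 209 ± 74.5 CPM in CAC (SD, n = 5 each; log2 fold change 0.58 ± 0.23, adjusted p = 0.0467).

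**Figure D5:**
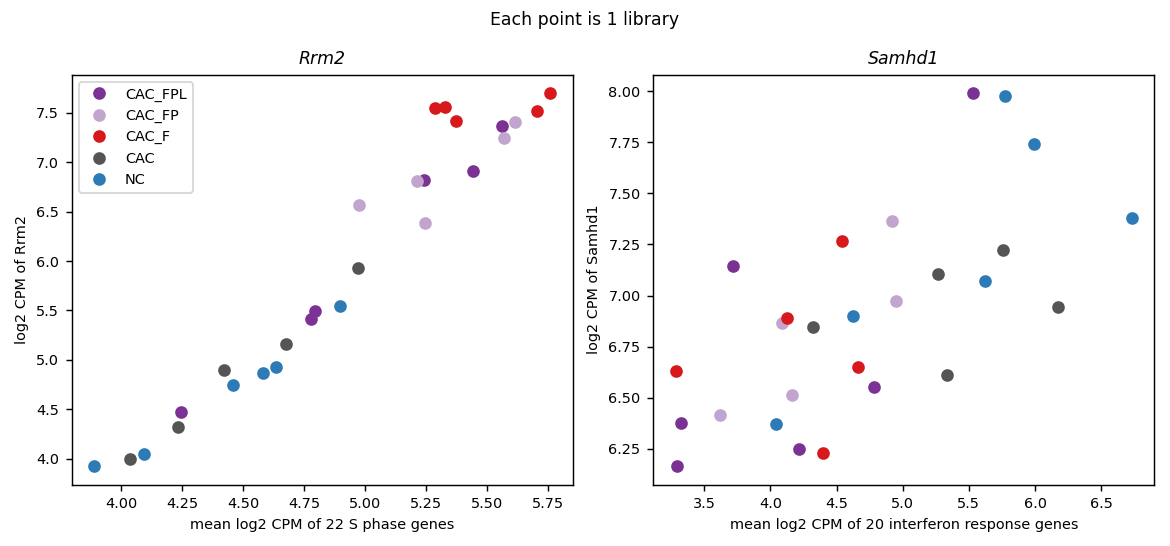
Left, log2 CPM of Rrm2 against the mean log2 CPM of 22 S phase genes; right, log2 CPM of Samhd1 against the mean of 20 interferon response genes. Each point is 1 of 27 libraries, coloured by group. On the left the points follow one line (r = 0.94 within groups), with CAC_F at the top; on the right they scatter more (r = 0.64 within groups).

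Known p53 targets rose in the same libraries in which Rrm2b did not. Of 18 listed, 13 rose in CAC_F over CAC, 0 fell, and the median log2 fold change was 1.11. Bax, a mediator of apoptosis, was at 1.26 ± 0.17 (adjusted p = 3.02e-05), Zmat3 at 1.13 ± 0.16 (4.06e-05), the cyclin Ccng1 at 1.29 ± 0.19 (4.76e-05) and the exonuclease Aen at 1.09 ± 0.17 (6.89e-05). Cdkn1a, the inhibitor of cyclin-dependent kinases, was at 240.3 ± 61.7 CPM in CAC_F against 95.9 ± 15.5 CPM in CAC (SD, n = 5 each; 1.33 ± 0.23 on the log2 scale, adjusted p = 0.000181). Trp53 itself was at 0.32 ± 0.16 (0.119). Of the 18, 11 rose in CAC_FP over CAC (median 0.69), and in CAC_FPL over CAC 0 of 18 were called (median 0.36). Against CAC_F, 8 of 18 were lower in CAC_FPL, Cdkn1a at -0.997 ± 0.22 (adjusted p = 0.00994) among them.

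Enzymes of the folate cycle, which feeds thymidylate synthase its methyl group, rose in part. Of 17 tested (19 listed), 10 rose and 0 fell in CAC_F over CAC, with a median of 0.44. The mitochondrial enzyme Mthfd1l was at 58.6 ± 2.52 CPM in CAC_F against 22.3 ± 4.90 CPM in CAC (SD, n = 5 each; 1.40 ± 0.19 on the log2 scale, adjusted p = 3.02e-05). Slc19a1, the reduced folate carrier, which takes up folinic acid, rose by 1.00 ± 0.20 (0.000687), the purine synthesis enzyme Gart by 0.76 ± 0.17 (0.00158) and Shmt1 by 0.54 ± 0.13 (0.00274). Umps, which can convert fluorouracil into its nucleotide, was at 0.47 ± 0.18 (adjusted p = 0.0375). Of the 17, 6 rose in CAC_FP over CAC, at a median of 0.45. In CAC_FPL over CAC 1 did, Mthfd1l (0.88 ± 0.18, adjusted p = 0.018), at a median of 0.30.

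The remaining genes of deoxynucleotide salvage, phosphorylation and clean-up did not move as one. In CAC_F over CAC 6 of 17 tested rose and 4 fell, with a median of 0.07. Of all genes 19.0% rose and 20.2% fell there, so the share that fell was near that of all genes. Cda, cytidine deaminase, fell to 2.66 ± 1.40 CPM in CAC_F, against 12.5 ± 4.17 CPM in CAC (SD, n = 5 each; -2.23 ± 0.42 on the log2 scale, adjusted p = 0.000335). The mitochondrial nucleotidase Nt5m (-0.55 ± 0.12, adjusted p = 0.000853) and the mitochondrial kinase Dguok (-0.55 ± 0.13, 0.00194) fell too. Nme1, a nucleoside diphosphate kinase, rose by 0.95 ± 0.20 (0.000717). In CAC_FP over CAC 2 rose and 2 fell, near the shares of all genes, of which 9.68% rose and 8.90% fell. Cda was among the genes of this list that fell (-1.99 ± 0.41, adjusted p = 0.00343).

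Interferon response genes were lower under FOLFOX while Samhd1 was not called. In CAC_F over CAC 13 of 20 fell and 0 rose, with a median of -1.46, for example Mx1 at -2.38 ± 0.42 (adjusted p = 0.000239), Irf7 at -1.82 ± 0.36 (0.00054), Oas1a at -1.13 ± 0.25 (0.00122) and Oasl2 at -2.24 ± 0.60 (0.00503). Of the 20, 6 fell in CAC_FP over CAC (median -1.42), and in CAC_FPL over CAC 2 of 20 did (median -1.24), so the medians lay closer together than the counts. Samhd1 and the mean of this list correlated at r = 0.64 after group means were subtracted. Other immune markers moved in CAC_F over CAC: 6 of 10 macrophage and monocyte markers and 3 of 5 neutrophil markers tested (6 listed) rose. In the same comparison 8 of 9 T cell markers and 4 of 8 B and plasma cell markers fell. Of all genes, 19.0% rose and 20.2% fell there. The summed macrophage and monocyte level was 1156 to 2258 CPM in CAC_F and 522 to 1107 CPM in CAC. The summed neutrophil level was 284 to 1070.3 CPM in CAC_F and 10.9 to 135 CPM in CAC, and the part of these cells in the level of Samhd1 was not tested.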

How the data were processed

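RNA of 27 libraries was sequenced after Trizol extraction, with libraries made by the dUTP method, per the labels' protocols. The authors deposited whole counts per gene and, beside them, FPKM. Tools named by the submitters' processing notes are cutadapt 1.9, FastQC and HISAT2. What each was used for, and the counter, annotation and build, were not given in the sources used here. Kept for testing were 15080 genes that reached 1 FPKM or more in 5 or more libraries. The deposited counts were scaled with TMM and fitted in 1 model with a coefficient per group (edgeR 4.0.16 quasi-likelihood test, R 4.3.3), two-sided, with Benjamini-Hochberg adjustment over all genes tested and calls at an adjusted p below 0.05. The SE of a log2 fold change was derived from its F statistic. Levels within a gene are CPM; levels and ratios between genes use the authors' FPKM. Ratios were tested by exact permutation (scipy 1.17.1), adjusted over 14 tests. No libraries of a group were identical. The fits were tested on simulated counts.

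The genes and lists described were chosen with earlier results of these data known. Named genes are the 9 members, the 3 genes most like each, up to 4 of each list with the smallest adjusted p in CAC_F over CAC, and Umps, Mki67, Cdkn1a and Trp53; some items this rule names are not reported here. Alternatives were no filter, other size factors, DESeq2 1.42.0, limma 3.58.1 (voom with library weights, and log2 FPKM with 1 or 0.1 added), a replicate block, a smooth muscle covariate, only the groups compared, and libraries left out.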

Additional observations from a re-analysis of the deposited data

Results flagged for a closer look

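Of 55 sets of values (9 genes and 2 ratios in each of 5 groups), 2 held a library far from the others of its group, where chance gives about 1 in 20. Rrm2b in CAC_FPL replicate 4 was at 21.3 CPM, with the next library at 14.9 CPM (gap over range 0.647, critical value 0.625, n = 6). The ratio of Tk1 to Tyms in NC replicate 2 was 1.29, the lowest of its group, with the next at 1.44 (gap over range 0.682, n = 6).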

How the results depend on the processing

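Of 693 values of single genes under another setting, 643 kept their direction and side of the threshold, 20 became calls, 8 lost theirs and 22 changed sign. Of 666 with 1 library left out, 611 kept both, 13 became calls, 9 lost theirs and 33 changed sign. Every sign change was of a value without a call, at an adjusted p of at least 0.433 under the alternative. Of 87 counts of members called under another setting, 75 were within 1.5 times the main count. The exceptions follow, and their cause was not tested. The smooth muscle covariate gave 3 members in CAC_F over CAC, 1 in CAC_FP over CAC and 2 over the 5 groups. Of all 15080 genes it gave 4432, 1363 and 3529 there. Leaving out CAC replicate 2 and CAC_FPL replicate 3 together gave 5 in CAC_FP over CAC and 3 in CAC_FPL over CAC. Of all 15080 genes, 3867 and 1267 were called there. For Tyms, Tk1, Dut, Dctd, Dck, Rrm1 and Rrm2, CAC replicate 2 was the highest CAC library in CPM. CAC_FPL replicate 3 was the lowest CAC_FPL library for the same genes. Leaving these libraries out therefore widens those differences by itself. In CAC_FPL over CAC, DESeq2 gave 2, voom with library weights 1 (Rrm2b, lower), and single libraries left out 0 to 2. Of all genes, DESeq2 called 860 there and voom 934. Without CAC_FPL replicate 3 or CAC replicate 2, which gave 2 members each, 763 and 797 of all genes were called. In CAC_FPL over CAC_F, DESeq2 and both limma fits of log2 FPKM gave 1 each, voom 4, and single libraries left out 0 to 3. Of all genes, DESeq2 called 2708 there, voom 3457, and limma 1719 (1 added) and 1703 (0.1 added). For DESeq2 and these limma fits the members' share was near or below that of all genes. Without CAC_FPL replicate 4, 5 or 6, which gave 1, 3 and 2 members, 2296, 2403 and 2527 of all genes were called. For the members so called, the library left out was among the highest CAC_FPL libraries in CPM. Leaving it out therefore widens their difference by itself. Tyms in CAC_F over CAC also lost its call with no filter (0.49, adjusted p = 0.0674) and with only the groups compared (0.47, 0.0671), at folds no smaller than the 0.45 of all libraries; the second gives no value over the 5 groups.

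Replicate numbers did not pair the libraries: 51 same-numbered pairs from different groups had a median correlation of deviations of -1.5e-05, with 13 over 0.1, and 240 pairs of other numbers had 0.0019, with 61 over 0.1. With the replicate block, 2 members were called in CAC_FPL over CAC_F and 7 in CAC_F over CAC. Of all 15080 genes, 2053 and 5723 were called there. Under it Dctd in CAC over NC was 0.11, and Samhd1 was -0.18 in CAC_FPL over CAC_F and -0.28 in CAC_FPL over CAC_FP.

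The other sign changes, as log2 fold changes, were these. With the smooth muscle covariate Tyms was -0.0045 and Rrm2b 0.046 in CAC_FP over CAC, and in CAC_FPL over CAC_FP Tyms was 0.068, Tk1 0.058, Dut 0.040 and Dck 0.065. With both named libraries out, Dut was -0.067 and Rrm2 -0.11 in CAC over NC, and in CAC_FPL over CAC_FP Tk1 was 0.072 and Samhd1 -0.018. With voom, Samhd1 was -0.22 in CAC_FPL over CAC_F and, in CAC_FPL over CAC_FP, -0.30, with Tk1 at 0.016. With log2 of FPKM plus 1, Dctd was 0.019 in CAC over NC, and Samhd1 was -0.0019 in CAC_FPL over CAC_F and -0.088 in CAC_FPL over CAC_FP. With 0.1 added, these were 0.045, -0.0083 and -0.10.

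With 1 library left out, CAC over NC ran from -0.067 to 0.16 for Dut, -0.19 to 0.043 for Dctd and -0.11 to 0.46 for Rrm2. Samhd1 ran from -0.23 to 0.022 in CAC_FP over CAC, -0.41 to 0.073 in CAC_FPL over CAC, -0.071 to 0.24 in CAC_FP over CAC_F, -0.25 to 0.28 in CAC_FPL over CAC_F and -0.34 to 0.19 in CAC_FPL over CAC_FP. Dctd in CAC_FP over CAC_F ran from -0.13 to 0.22, and Rrm2b in CAC_FPL over CAC_F from -0.17 to 0.045. In CAC_FPL over CAC_FP Tyms ran from -0.17 to 0.017 and Tk1 from -0.18 to 0.072.

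For the ratio of Rrm2b to Rrm2, adding 1 to each FPKM gave log2 differences of -2.78 in CAC_F minus CAC, -2.04 in CAC_FP minus CAC and 1.41 in CAC_FPL minus CAC_F. All were then past the threshold, though smaller in size than the main values of -3.01, -2.18 and 1.45. In CAC minus NC the ratio then differed by -0.037. With 1 library left out it ran from 1.15 to 1.71 in CAC_FPL minus CAC_F and from -0.24 to 0.34 in CAC minus NC. The ratio of Tk1 to Tyms in CAC_FP minus CAC was -0.0059 with both named libraries out and ran from -0.070 to 0.14 with 1 out. Its other ranges were -0.013 to 0.11 in CAC_FPL minus CAC, -0.20 to 0.0074 in CAC_FP minus CAC_F and -0.095 to 0.11 in CAC_FPL minus CAC_FP.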

Other observations

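Cytidine deaminase (Cda), which turns deoxycytidine into deoxyuridine, was lower in each FOLFOX group's mean than in CAC and NC. It averaged 5.90 ± 3.08 CPM in CAC_FPL (SD, n = 6), 3.15 ± 0.76 in CAC_FP (n = 5), 2.66 ± 1.40 in CAC_F (n = 5), 12.5 ± 4.17 in CAC (n = 5) and 14.7 ± 4.93 in NC (n = 6). CAC_FPL over CAC was at -1.09 ± 0.38 on the log2 scale and was not called (adjusted p = 0.125, edgeR), and CAC_FPL over CAC_F was at 1.15 ± 0.39 (0.0539).

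The folate cycle genes followed some members more than others. After group means were subtracted, the mean log2 CPM of that list correlated over the 27 libraries at r = 0.75 with Tyms, 0.75 with Dut and 0.74 with Dctd, and at 0.29 with Tk1. The libraries share scaling and tissue makeup, the split of the CAC_FPL libraries is left in r, and no p is attached.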
